A study of Mus musculus with 9 samples.

Results

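The mRNA of 9 secreted Wnt inhibitors was followed across the bone of 3 groups of mice: the secreted frizzled-related proteins Sfrp1, Sfrp2, Sfrp4, Sfrp5 and Frzb, the Dickkopf proteins Dkk1, Dkk2 and Dkk3, and Wif1. They were chosen by symbol, with earlier results of these data known. All 9 were found among the 22183 genes of the table. Polyadenylated RNA of whole mouse tibiae was sequenced in 3 libraries per group. The naive group was given no treatment, the Ti group titanium particles alone, and Ti+I-OG mice received the particles together with I-OG, a hydrogel of natural polymers that carries irisin, a hormone released by muscle. Titanium particles are used to model aseptic loosening, in which wear debris leads to loss of bone around an implant. The submitters give 5 weeks as the length of the hydrogel treatment, while the sources used here do not give the strain, age and sex of the mice or the times of the other groups. The particle and the procedure that delivers it cannot be told apart against untreated bone, and irisin and its carrier cannot be told apart in the Ti+I-OG group, since a hydrogel without irisin was not analysed here. The labels do not state separate animals for the libraries, so p-values measure only how these samples scatter, and that scatter may be technical.

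Wnt proteins bind Frizzled receptors together with the co-receptors Lrp5 and Lrp6, and this stabilises beta-catenin, which enters the nucleus and acts with TCF/LEF factors on target genes. The secreted inhibitors act outside the cell at different points. Sfrp proteins, among them Frzb, and Wif1 bind Wnt ligands themselves, whereas Dkk1 and Dkk2 bind the Lrp co-receptors. Dkk3 has a Dickkopf fold but is not known as a general blocker of Lrp5 and Lrp6. In bone, beta-catenin signalling favours osteoblast formation and restrains osteoclast formation, and Dkk1 and sclerostin, the product of Sost, are its best-known local brakes.

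The libraries held 16256081 to 24766502 counts, so that 3 counts correspond to 0.114 to 0.206 CPM (counts scaled to a common library size). A floor at that level covers no more than counting error, and none was applied to the CPM values given here. Naive replicate 3 stood apart from the other naive libraries: the summed level of 12 osteoblast and bone matrix genes was 1541 CPM there, against 3489 and 3785 CPM in naive replicates 1 and 2. Of the 9 libraries, this one had the lowest CPM of Sfrp1, Sfrp4, Dkk1, Dkk3 and Wif1, so the values of these 5 without it are given for Ti vs naive. Osteoblast and osteocyte markers were present in every library, as the tissue label implies, and so were markers of tendon, cartilage, muscle, marrow stroma, vessels and red cells, with no marker gene at 0 throughout. In bulk tissue, fewer cells of a type and less RNA per cell cannot be told apart.

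The bases just upstream of the transcription start are shown for Sfrp2 and Sfrp5, a pair of the inhibitors that differed between the groups and whose RefSeq window holds no exon of the gene in GENCODE mouse release 21. The RefSeq promoter table (GRCm38.p6) held 6 of the 9 genes, Sfrp2, Sfrp5, Frzb, Dkk1, Dkk2 and Wif1. Each sequence gives 250 bases, 5′ to 3′ on the strand of the gene, and capitals mark a match to a RUNX motif (TGTGGT, searched on both strands).
Sfrp2, chr3:83766071-83766320, plus strand: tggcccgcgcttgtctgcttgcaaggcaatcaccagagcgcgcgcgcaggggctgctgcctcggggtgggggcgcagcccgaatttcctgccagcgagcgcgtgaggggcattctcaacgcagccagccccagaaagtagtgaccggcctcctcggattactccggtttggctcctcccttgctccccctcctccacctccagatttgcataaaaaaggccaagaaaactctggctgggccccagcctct
Sfrp5, chr19:42202253-42202502, minus strand: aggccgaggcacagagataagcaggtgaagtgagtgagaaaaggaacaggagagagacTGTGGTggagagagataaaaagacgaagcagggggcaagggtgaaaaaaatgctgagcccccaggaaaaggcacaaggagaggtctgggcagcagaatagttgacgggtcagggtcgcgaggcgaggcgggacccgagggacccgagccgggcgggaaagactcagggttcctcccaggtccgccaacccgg
The Sfrp5 window had 1 RUNX match, 192 bases before the start, and 59.6% GC with 13 CpG dinucleotides. The Sfrp2 window had 63.6% GC and 16 CpG dinucleotides and held none of the 4 motifs searched. Both lay above the median of 52.4% GC and 6 CpG dinucleotides over 32851 windows of the same length. In RefSeq the Sfrp2 gene begins 571 bases further upstream, whereas its start in GENCODE is the one used here. The motifs, all searched on both strands, were a TATA box (TATAAA), found in 12.4% of all windows, a TCF/LEF core (CTTTGA), found in 13.8%, the RUNX motif, found in 14%, and an AP-1 motif (TGANTCA), found in 6.75%. A TATA box was matched in the windows of Dkk1, Dkk2 and Wif1, and a TCF/LEF core was matched in those of Dkk1, with 2 matches, and Frzb. Dkk1 also had a RUNX match, and no matches overlapped one another. In GENCODE, Dkk1, Frzb and Wif1 start 169, 229 and 44 bases further upstream, so these windows hold exon of the gene. The TATA box of Dkk1 (54 bases before the start used here) and the TCF/LEF core of Frzb (95 bases) lie past the GENCODE start. So does the Dkk1 TCF/LEF match at 117 bases. The Wif1 TATA match was on the opposite strand, 232 bases before the start. These matches describe the letters only and were not tested for function.

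Wif1 and Sfrp4 supplied most of the inhibitor mRNA in all 3 groups. Levels between genes are given as FPKM, fragments per kilobase of transcript and scaled to library size, which corrects for transcript length. In naive tibiae Sfrp4 had a mean level of 17.8 ± 7.38 FPKM (SD, n = 3, as for every mean below) and Wif1 16.1 ± 9.0 FPKM, and their libraries overlapped. A group of lower genes followed, with mean levels of 1.55 ± 0.580 FPKM for Dkk1, 1.21 ± 0.466 for Sfrp1, 0.884 ± 0.207 for Dkk3 and 0.649 ± 0.185 for Frzb. Each of these overlapped its neighbour in the order. Sfrp5 (0.313 ± 0.126 FPKM) and Sfrp2 (0.299 ± 0.0825 FPKM) overlapped with each other, and Dkk2 was the lowest, with 0.0597 ± 0.0737 FPKM and 13, 0 and 3 counts in naive replicates 1 to 3. The lowest naive genes therefore rest on few reads.

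The order was different in the Ti group. Wif1 led with 32.4 ± 5.75 FPKM, its libraries lay apart from those of Sfrp4 at 22.5 ± 1.61 FPKM, and Frzb came next at 5.50 ± 3.44 FPKM. Dkk1 (4.83 ± 1.98 FPKM), Dkk3 (4.15 ± 1.96 FPKM) and Sfrp2 (2.68 ± 0.664 FPKM) followed, each overlapping its neighbour. Sfrp1 was at 1.34 ± 0.0741 FPKM, Sfrp5 at 1.07 ± 0.189 FPKM and Dkk2 at 0.268 ± 0.0357 FPKM. In Ti+I-OG, Sfrp4 (22.4 ± 4.44 FPKM) was again first by its mean and overlapped with Wif1 (15.8 ± 4.41 FPKM). Frzb, which had followed Sfrp4 in the Ti group, was at rank 6 in Ti+I-OG with 1.5 ± 1.01 FPKM, below Dkk1 (3.06 ± 0.416), Dkk3 (2.49 ± 0.361) and Sfrp2 (2.01 ± 0.940).

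**Figure D1:**
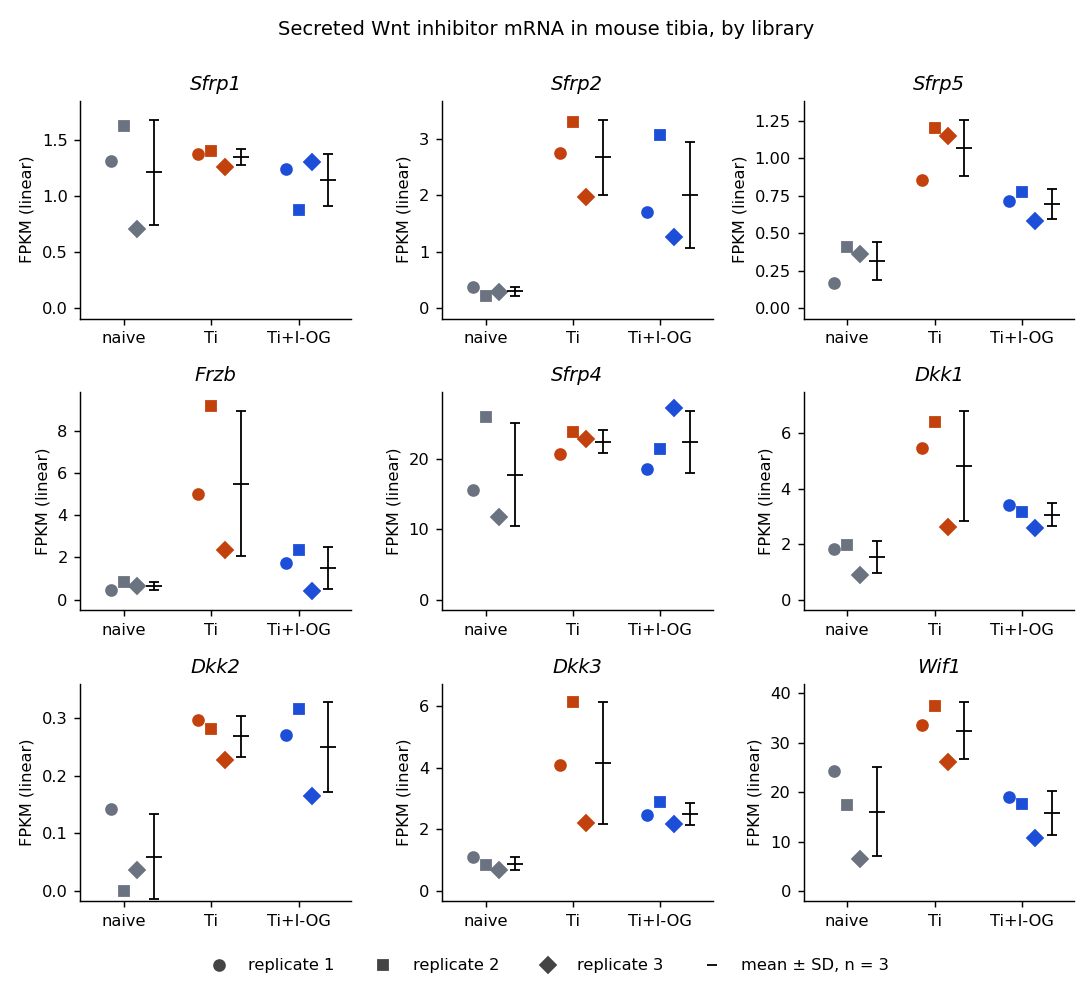
FPKM of each inhibitor (linear axis, 1 panel per gene) in each library of the naive, Ti and Ti+I-OG groups; points are libraries, marked by replicate, and bars show mean and SD (n = 3). Sfrp2, Dkk3, Frzb, Dkk1 and Sfrp5 are higher in every Ti library than in every naive library, while the Sfrp1 and Sfrp4 libraries of the groups overlap.

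Of the 9 inhibitors, 5 rose in titanium-treated bone relative to naive bone: Sfrp2, Dkk3, Frzb, Dkk1 and Sfrp5. By edgeR's quasi-likelihood test with Benjamini-Hochberg adjustment, 6.43% of the 14211 genes tested passed, 4.05% higher and 2.39% lower. None of the 9 inhibitors fell, and 4 did not pass the threshold of 0.05. All 9 log2 fold changes were positive (50.7% of all genes tested were), with a median of 1.85 against 0.01 over all genes. For 7 of the 9 every Ti library was above every naive one. Groups were apart in either direction for 27.2% of all genes tested, and apart with Ti higher for 14.3%. All 9 genes passed the filter on low counts. The 9 were chosen with earlier results of these data known, so their counts beside these shares describe only.

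Among the Wnt-binding Sfrp proteins, Sfrp2 and Frzb had the largest fitted changes, each within 1 SE of the other. Sfrp2 had 0.721, 0.420 and 0.545 CPM in naive replicates 1 to 3 and 5.48, 6.56 and 3.92 CPM in the Ti libraries, so the lowest Ti library was far above the highest naive one. The fitted log2 fold change of Sfrp2 was 3.22 (SE 0.414, adjusted p = 0.00318), or 9.30-fold. Exons of Sfrp2 overlap those of Gm26771 on the opposite strand in GENCODE, and the library kit does not mark strand. Reads within the overlap cannot be told apart, and its length was not measured.

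Frzb, which is named for its frizzled-like Wnt-binding domain and is well known in cartilage, rose by a similar factor but with a wide spread. It had 1.37, 2.52 and 1.89 CPM in naive libraries and 15.6, 28.6 and 7.25 CPM in Ti libraries. The Ti libraries differed among themselves by more than the whole naive range. The log2 fold change of Frzb was 3.16 (SE 0.614, adjusted p = 0.0173), and 2.56 without Ti replicate 2, the library with the highest value.

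Sfrp5 was low in all groups, with 0.304, 0.747 and 0.628 CPM in naive and 1.61, 2.27 and 2.16 CPM in Ti libraries, which did not overlap. Its log2 fold change was 1.85 (SE 0.412, adjusted p = 0.0260). Sfrp4, the most abundant Sfrp gene here, had 24.6, 41.8 and 19.1 CPM in naive and 30.4, 37.3 and 36.1 CPM in Ti libraries. The groups overlapped, and the log2 fold change of 0.28 (SE 0.249, adjusted p = 0.491) did not pass; without naive replicate 3 it was 0.038. Nor did Sfrp1, with 5.39, 6.82 and 2.81 CPM in naive and 5.95, 6.06 and 5.44 CPM in Ti libraries. Its log2 fold change was 0.22 (95% interval -0.42 to 0.86, adjusted p = 0.656), and -0.09 without naive replicate 3.

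Among the Dickkopf genes, Dkk3 and Dkk1 rose. Dkk3 had 3.49, 2.76 and 2.14 CPM in naive and 13.6, 20.5 and 7.35 CPM in Ti libraries, a rise of 2.30 on the log2 scale (SE 0.344, adjusted p = 0.00634). Dkk1, the Lrp5 and Lrp6 antagonist, had 4.14, 4.58 and 1.97 CPM in naive and 13.2, 15.4 and 6.27 CPM in Ti libraries. Its log2 fold change was 1.71 (SE 0.362, adjusted p = 0.0233). Without naive replicate 3 it was 1.40 for Dkk1 and 2.12 for Dkk3. For both genes every Ti library was above every naive one, and Ti replicate 3 was the lowest of its group. Dkk2, which also binds Lrp5 and Lrp6, had 0.494, 0 and 0.126 CPM in naive and 1.09, 1.03 and 0.833 CPM in Ti libraries. These did not overlap, but the log2 fold change of 2.16 (SE 0.740, adjusted p = 0.0973) did not pass at these low counts. DESeq2 called Dkk2 on the same counts (adjusted p = 0.0386), and without naive replicate 1, which held most of its naive counts, the log2 fold change was 3.79.

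Wif1, the most abundant inhibitor in the Ti group, had 52.6, 38.3 and 13.6 CPM in naive and 76.5, 85.2 and 59.3 CPM in Ti libraries. The groups did not overlap, yet the log2 fold change of 1.08 (SE 0.386, adjusted p = 0.109) did not pass. Without naive replicate 3 it was 0.68.

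Only Sfrp2 and Dkk3 passed in each of the 9 fits that left out 1 library, with adjusted p up to 0.0242 for Sfrp2 and 0.0368 for Dkk3. Dkk1, Frzb and Sfrp5 did not pass without naive replicate 3, Ti replicate 1 or Ti replicate 2 (adjusted p up to 0.102, 0.0745 and 0.110), and without naive replicate 1 Frzb and Sfrp5 did not pass while Dkk2 did (adjusted p = 0.0450, in a fit that called 405 genes against 914). With the naive and Ti libraries alone in the fit, 3 of the 9 passed, without Dkk1 (adjusted p = 0.0536) and Sfrp5 (0.0569).

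**Figure D2:**
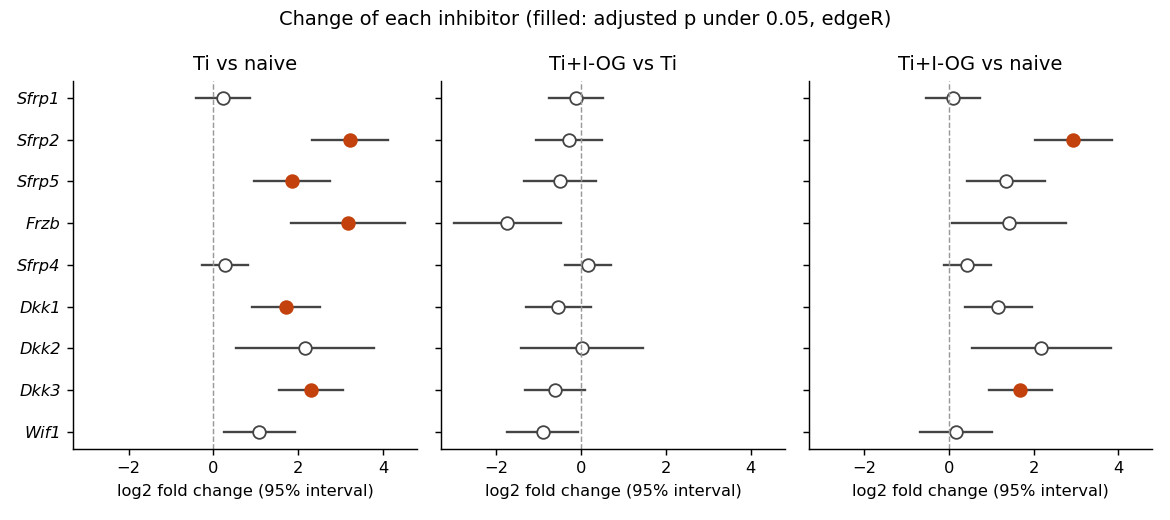
Log2 fold change of each inhibitor in the 3 comparisons, with 95% intervals from edgeR (horizontal lines); filled points have an adjusted p under 0.05. In Ti vs naive 5 points are filled, in Ti+I-OG vs Ti none, and in Ti+I-OG vs naive Sfrp2 and Dkk3.

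None of the 9 inhibitors passed the test between the hydrogel-treated and the titanium-only tibiae. By edgeR's quasi-likelihood test 0.0422% of all genes tested passed, all of them higher in Ti+I-OG. Frzb and Wif1, 2 of the 9, had an unadjusted p under 0.05. DESeq2 also called none of the 9, with 1 at an unadjusted p under 0.05. The share of all genes under this unadjusted threshold was not counted, so these numbers describe only. The log2 fold change was negative for 7 of the 9 (49.6% of all genes tested had a positive one), with a median of -0.50 against -0.00313 over all genes.

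Frzb had 6.0, 8.31 and 1.25 CPM in Ti+I-OG libraries, against 15.6, 28.6 and 7.25 CPM in the Ti libraries given above. Ti+I-OG replicate 2 was just above Ti replicate 3, so the groups overlapped. The log2 fold change was -1.74 (SE 0.573, 95% interval -2.99 to -0.48), with an edgeR p of 0.0107 and an adjusted p of 0.628. It ranged from -2.24 without Ti+I-OG replicate 2 to -1.15 without Ti replicate 2.

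Wif1 had 47.4, 45.3 and 25.2 CPM in Ti+I-OG libraries, all below the lowest Ti library at 59.3 CPM. It was the only inhibitor without overlap in this comparison, where 14.5% of all genes tested had none (7.75% with Ti+I-OG higher). The log2 fold change was -0.91 (SE 0.386, 95% interval -1.75 to -0.06), with an edgeR p of 0.0370 and an adjusted p of 0.630.

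The other 7 genes did not pass either, and their libraries, like those of Frzb, overlapped between the groups in CPM. In FPKM those of Sfrp5 were apart, at 0.582 to 0.777 in Ti+I-OG and 0.853 to 1.20 in Ti. Dkk3 had 8.97, 10.8 and 7.42 CPM in Ti+I-OG, a log2 difference of -0.61 (95% interval -1.32 to 0.09). Dkk1 had 9.02, 8.59 and 6.46 CPM, a log2 difference of -0.54 (-1.30 to 0.23). Sfrp5 had 1.49, 1.65 and 1.13 CPM, a log2 difference of -0.50 (-1.35 to 0.35). For all 3 the interval reaches from a fall to a small rise, so these libraries do not settle a direction. Sfrp2 had 3.72, 6.87 and 2.61 CPM, with Ti+I-OG replicate 2 above every Ti library, and a log2 difference of -0.28 (-1.06 to 0.49). Sfrp1 had 5.90, 4.26 and 5.84 CPM (log2 difference -0.12, -0.76 to 0.52). Sfrp4 had 33.6, 35.2 and 47.1 CPM (0.16, -0.38 to 0.70), and Dkk2 had 1.09, 1.31 and 0.623 CPM (0.03, -1.41 to 1.46). The interval of Dkk2 is the widest and leaves a large change in either direction possible.

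Sfrp2 and Dkk3 were higher in hydrogel-treated tibiae than in naive bone. This comparison shares its libraries with both others and adds no independent evidence. Sfrp2 was higher by 2.93 on the log2 scale (SE 0.417, adjusted p = 0.00625) and Dkk3 by 1.69 (SE 0.344, adjusted p = 0.0236). So 2 of the 9 rose, and 7 did not pass. Of all genes tested 8.26% passed, 3.84% higher and 4.43% lower. All 9 log2 fold changes were positive, as were those of 52.7% of all genes tested. For 5 of the 9, Sfrp2, Sfrp5, Dkk1, Dkk2 and Dkk3, every Ti+I-OG library was above every naive one. Of all genes tested 35.5% had groups apart in either direction, and 18.7% with Ti+I-OG higher. The log2 fold change was 2.18 for Dkk2 (adjusted p = 0.0819), which ranged from 1.66 to 3.81 over the fits that left out 1 library. Dkk2 passed without naive replicate 1 (log2 fold change 3.81, adjusted p = 0.0486) and with DESeq2 (0.0314). With DESeq2, Dkk1 and Sfrp5 passed too, while Frzb did not. The log2 fold change was 1.43 for Frzb (0.144), 1.35 for Sfrp5 (0.0648) and 1.17 for Dkk1 (0.0640). It was 0.44 for Sfrp4 (0.256), 0.17 for Wif1 (0.792) and 0.10 for Sfrp1 (0.849). For these 3 and Frzb the libraries of both groups overlapped, and the value of Wif1 was -0.24 without naive replicate 3.

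In this comparison libraries with the same replicate number deviated together, and with the number as a block 6 of the 9 passed. Besides Sfrp2 and Dkk3 these were Dkk1 (adjusted p = 0.00402), Sfrp5 (0.0360), Dkk2 (0.0466) and Frzb (0.0496). That fit called 12.1% of all genes tested higher. Its pairing was chosen from these data (r of the deviations 0.115 to 0.273), not from the labels. Without the block, Sfrp2 passed in every fit that left out 1 library. Dkk3 did not pass without naive replicate 3 (adjusted p = 0.0775), Ti+I-OG replicate 1 (0.0646) or Ti+I-OG replicate 2 (0.107). Without naive replicate 2, 5 of the 9 passed, with Dkk1, Sfrp4 and Sfrp5 added, in a fit that called 2119 genes where that of all 9 libraries called 1174.

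Over the 3 groups together, edgeR's F test called Sfrp2 (adjusted p = 0.00602), Dkk3 (0.0146), Frzb (0.0300), Dkk1 (0.0431) and Sfrp5 (0.0490), with 5.77% of all genes tested. Without naive replicate 3, only Sfrp2 (0.0290) and Dkk3 (0.0493) passed.

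The pool of inhibitor mRNA was larger in the Ti group and had another makeup. The summed level of the 9 genes was 45.3, 49.3 and 22.0 FPKM in naive libraries, 74.3, 89.2 and 60.9 FPKM in Ti libraries and 49.0, 52.5 and 46.5 FPKM in Ti+I-OG libraries. All Ti sums were above all others, and naive replicate 3 was the lowest. Wif1 and Sfrp4 made up 86.5% ± 2.68 of the sum in naive bone, 74.2% ± 6.01 after titanium and 77.6% ± 3.80 with hydrogel. The 5 genes that rose in the Ti group made up 10.2% ± 2.61, 23.6% ± 6.29 and 19.6% ± 4.20. Since these 5 were chosen by their rise, that share describes the makeup and supports nothing. Frzb took 1.90% ± 0.998 of the sum in naive bone, 6.94% ± 3.23 after titanium and 2.96% ± 1.90 with hydrogel. Dkk1 took 4.01% ± 0.0355, 6.29% ± 1.72 and 6.19% ± 0.695 in the same order.

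**Figure D3:**
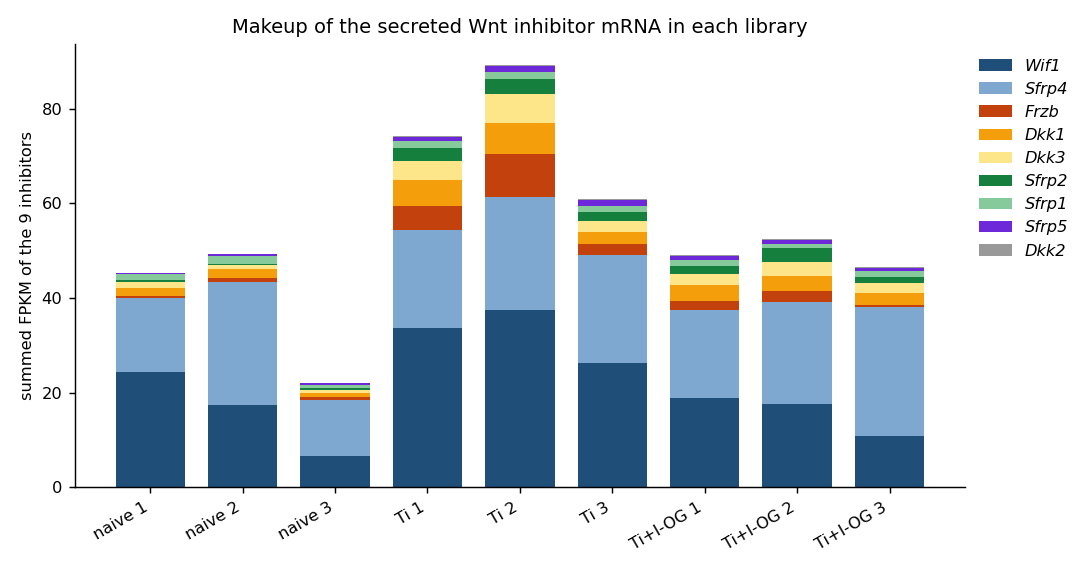
Summed FPKM of the 9 inhibitors in each library (stacked bars, linear axis from 0), with each gene as a segment. The sum is 60.9 to 89.2 FPKM in the Ti libraries, and Wif1 and Sfrp4 form most of each bar.

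The inhibitors did not vary as a single block across libraries. Of the pairs among the 9, Dkk1 and Dkk3 followed each other most closely, with a Pearson r of log2 CPM over the 9 libraries of 0.957, and 0.870 for deviations from the group means. Sfrp2 and Dkk3 had an r of 0.953 (0.704 within groups). Sfrp1 and Dkk2 had the lowest, 0.131. These coefficients describe 9 libraries that share tissue makeup and group differences.

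The genes whose pattern over the 9 libraries was most like that of each inhibitor were sought among those with a mean level of at least 1 FPKM. For Dkk1 they were Itm2a (r 0.995), Lox (0.994), a collagen cross-linking enzyme, and Emp1 (0.990). For Dkk3 they were Mtmr11 (0.991), Abi3bp (0.989) and Angptl1 (0.989). Tnmd, which encodes the tendon protein tenomodulin, was among the closest to Sfrp2 (0.985), after Slc37a2 (0.992) and Ccl21a (0.991), a chemokine gene with near-identical copies whose reads may be split. For Frzb they were Fibin (0.983), Tgfb2 (0.975), a growth factor gene, and Crispld1 (0.970). The likeness of Dkk1 and Frzb to these genes was also high within groups, at 0.932 or more for each.

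Wif1 was most like Akr1c14 (0.989), Smpd3 (0.970), whose enzyme is needed for bone mineralisation, and Ifit1bl2 (0.966). Sfrp4 was most like H2-DMb2 (0.953) and Cd74 (0.948), both of antigen presentation by major histocompatibility complex class II, and Vangl1 (0.943). Sfrp1 was most like Bank1 (0.982), a B-cell adaptor gene, Mup18 (0.971) and Fam161a (0.956). For Sfrp5 the closest were Myo1e (0.960), Gstp2 (0.952) and Cyp27a1 (0.946). For Dkk2 they were Mt3 (0.983), Dcstamp (0.948), a gene of osteoclast fusion, and Itm2b (0.941). With few counts behind Sfrp5 and Dkk2, their orders are the least certain. Spearman's rank correlation with the inhibitor was 0.683 for Mup18 and Cd74, 0.7 for Fam161a and 0.717 for Itm2b. It was 0.817 to 0.983 for the other genes named as most like an inhibitor.

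Other genes of the pathway were taken by role from lists, and each list's median can be read beside the 1.85 of the 9 inhibitors. Of 10 tested genes of other extracellular and membrane Wnt inhibitors, 2 rose in Ti vs naive. Sost, the sclerostin gene of osteocytes, rose by 1.32 on the log2 scale, from 8.60 to 21.4 CPM (SE 0.220, adjusted p = 0.0113). Igfbp4, an IGF-binding protein gene, had a log2 fold change of 0.51 (adjusted p = 0.0447). DESeq2 called 2 of the 10 higher and limma-trend on log2(FPKM + 1) called 1. The list's median was 0.37. Dkk4 and Cer1 had no count in any library.

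On the ligand side, 2 of 8 tested Wnt genes rose. Wnt16, a ligand known in cortical bone, rose by 2.37 on the log2 scale, from 0.231 to 1.23 CPM (SE 0.509, adjusted p = 0.0239). Wnt5b, which acts mostly outside the beta-catenin branch, rose by 1.47, from 1.98 to 5.49 CPM (SE 0.283, adjusted p = 0.0171). All 8 had positive log2 fold changes, with a median of 0.97. Of 22 receptors and R-spondins, the R-spondin receptor Lgr6 rose (1.53, adjusted p = 0.0377). Rspo2, an R-spondin that enhances Wnt signalling, had a log2 fold change of 2.17 and did not pass (adjusted p = 0.0507, chosen after its value was seen). The median of this list was 0.64. DESeq2 called 7 of the 22 higher and limma-trend on log2(FPKM + 1) called 1.

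Inside the cell, 1 of 20 genes fell, Bcl9, a beta-catenin co-activator (log2 fold change -0.91, adjusted p = 0.0354), and none rose. Of 11 canonical target genes, 3 rose: Twist1 (1.61, adjusted p = 0.0274), Bambi (1.11, 0.0390) and Ccnd1 (0.80, 0.0493). DESeq2 also called 3 of the 11 higher, and limma-trend on log2(FPKM + 1) called 1. Axin2, the target used most often as a readout of beta-catenin, had a log2 fold change of -0.52 and did not pass (adjusted p = 0.297, chosen after its value was seen). The medians were 0.02 for the intracellular genes and 0.56 for the targets, against 0.01 over all genes.

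Between Ti+I-OG and Ti, none of the 71 pathway genes tested passed by edgeR, DESeq2 or limma-trend on log2(FPKM + 1). Unadjusted p-values under 0.05 numbered 5, 6 and 7, without a share over all genes to set beside them, so these counts describe only. The smallest p-values, none of which passed, belonged to Trabd2b (log2 fold change -0.65) and Rnf43 (0.74) among the inhibitors, Wnt2b (-1.25) and Wnt16 (0.59) among the ligands, and Lgr4 (-0.62) and Fzd3 (-0.66) among the receptors. Inside the cell they belonged to Wls (-0.38) and Btrc (0.35), and among the targets to Tnfrsf19 (-0.46) and Ccn4 (-0.60). Against naive bone, the Ti+I-OG libraries had higher Sost (1.06), Wnt16 (2.96), Wnt5b (1.19), Fzd9 (1.56) and Bambi (1.08). Apc (-0.73), Bcl9 (-0.93) and Gsk3b (-0.63), the last of which encodes the kinase that marks beta-catenin for destruction, fell. These 8, 5 higher and 3 lower, passed the edgeR test, where DESeq2 called 9 higher and 4 lower and limma-trend on log2(FPKM + 1) called 3 higher and 4 lower.

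**Figure D4:**
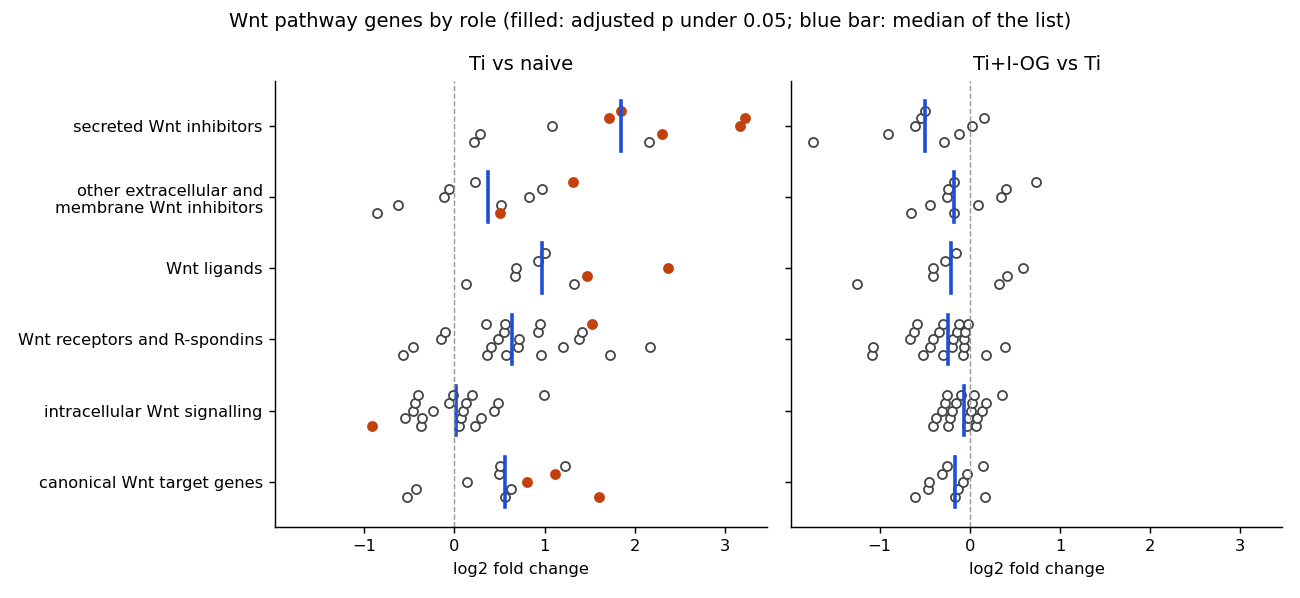
Log2 fold change (horizontal axis) of every tested gene of the Wnt lists, in rows by role, for Ti vs naive and Ti+I-OG vs Ti. Filled points have an adjusted p under 0.05 in edgeR and blue bars are list medians. The secreted inhibitors have a median of 1.85 in Ti vs naive, and the intracellular genes 0.02.

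Markers of several connective tissues moved in the same comparison as the inhibitors. Of 13 tendon and fibrous tissue markers, 11 rose in Ti vs naive (median log2 fold change 2.24), and their summed level was 225 to 482 CPM in naive libraries, 974 to 2176 CPM with titanium and 671 to 1305 CPM with titanium and hydrogel. Osteoblast and bone matrix markers rose in 8 of 12 (1541 to 3785, 7249 to 7657 and 5177 to 6052 CPM). Osteocyte markers rose in 8 of 8 (96.8 to 128, 253 to 329 and 189 to 229 CPM). Of 10 tested cartilage markers 4 rose (229 to 406, 889 to 948 and 253 to 586 CPM). Of 10 fibroblast markers 6 rose, with 718 to 1222, 2379 to 3671 and 1494 to 2583 CPM. Phex is in both bone lists, and Sost is an osteocyte marker as well as an inhibitor. The part of these tissues in the rise of the 9 inhibitors was not tested.

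Of the other lists, 2 of 8 marrow stromal, 1 of 12 skeletal muscle, 3 of 8 smooth muscle, 0 of 8 endothelial and 0 of 8 erythroid markers rose by edgeR. At an unadjusted p under 0.05 these lists had 3, 11, 6, 3 and 0 genes, in the same order, without a share over all genes beside them. All 12 skeletal muscle markers had positive log2 fold changes (median 1.35), and their summed level was 909 to 2683 CPM in naive, 2152 to 7473 CPM in Ti and 3295 to 5712 CPM in the Ti+I-OG libraries. Haemoglobin genes held 6.15% ± 3.26 of the naive counts, 8.04% ± 1.72 of the Ti counts and 15.6% ± 0.470 of the Ti+I-OG counts, and with them left out the same 5 and 2 inhibitors were called against naive bone. Between Ti+I-OG and Ti, 1 of the marker genes passed, Myh7 of skeletal muscle, and all 10 tested cartilage, 12 osteoblast and 8 osteocyte markers had negative log2 fold changes (medians -1.21, -0.60 and -0.46) without passing.

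Across the 9 libraries, Dkk1 (r 0.981) and Dkk3 (0.969) followed the summed tendon markers most closely of the 9 inhibitors. Within groups the highest coefficients were those of Dkk1 (0.937), Wif1 (0.882) and Dkk3 (0.878). Over all libraries Sfrp2 had an r of 0.910 (0.633 within groups), Frzb of 0.864 (0.720) and Wif1 of 0.842. With the summed osteocyte markers the r was similar for most of these genes. It was 0.942 for Dkk1 (0.969 within groups), 0.964 for Dkk3 (0.836), 0.936 for Sfrp2 (0.527), 0.858 for Frzb (0.718) and 0.762 for Wif1 (0.820). Sfrp4 had an r of 0.505 with tendon markers and 0.839 with marrow stromal markers, and Sfrp1 had 0.530 and 0.943. Spearman's rank correlations were 0.167 and 0.683 for Sfrp4, and 0.35 and 0.8 for Sfrp1. Naive replicate 3 was the lowest library for both genes and for the marrow stromal markers (951 CPM), so r leans on it. The 9 libraries share their makeup in all of these lists, so the coefficients do not separate one tissue from another.

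**Figure D5:**
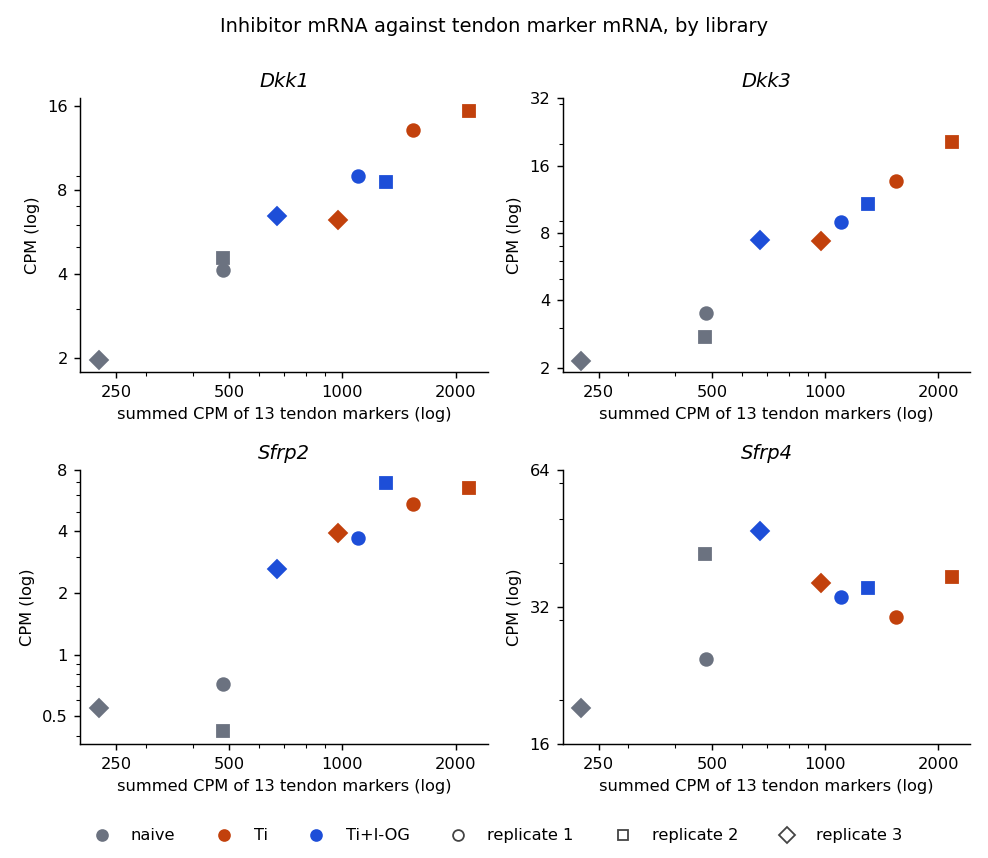
CPM of selected inhibitors (vertical axis, log scale) against the summed CPM of 13 tendon markers (horizontal axis, log scale) in each of the 9 libraries, coloured by group and marked by replicate. Dkk1 (r 0.981) and Dkk3 (r 0.969) lie close to a common line, whereas Sfrp4 (r 0.505) scatters.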

How the data were processed

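Polyadenylated RNA of mouse tibiae was sequenced on an Illumina instrument after preparation with a kit that does not mark strand, per the labels' protocols. The authors deposited estimated counts and FPKM values for 22183 genes in 9 libraries; 91.5% of the estimated counts were whole, and all were rounded. FPKM values were used as deposited for levels between genes and for the summed level of the 9 genes. The submitters' processing notes name StringTie 1.3.1, RSEM, DESeq2, edgeR and fastp; the aligner and the genome build were not given in the sources used here.

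Groups and replicate numbers came from sample titles. The 9 genes and all lists were chosen with earlier results of these data known. edgeR 4.0.16 (R 4.3.3, TMM, filterByExpr, quasi-likelihood, two-sided, 6 residual degrees of freedom) was fitted once to all libraries, with Benjamini-Hochberg adjustment over 14211 genes and a threshold of 0.05. CPM values are TMM-normalised. The script was tested on simulated data. All 9 genes are named in every comparison; of each pathway list, up to 4 genes that passed, by p, or else the 2 with the smallest p; likeness is Pearson's r of log2 CPM (prior count 2), the 3 highest. Alternatives were DESeq2 1.42.0, limma-trend 3.58.1 on log2(FPKM + 1) or + 0.1, other size factors, no filter, only 2 groups, haemoglobin genes left out, 1 library left out, and a replicate block. Fold changes on a log2(FPKM + pseudocount) scale understate those of low genes.

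No pair of libraries in a group was a copy. Deviations from group means of same-numbered libraries correlated at -0.0238 to 0.333 between Ti and naive and 0.0739 to 0.220 between Ti+I-OG and Ti. Between Ti+I-OG and naive they correlated at 0.115 to 0.273, above 0.1 for all 3 numbers, so the blocked result is given there; the pairing comes from these data, not from the labels.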

Additional observations from a re-analysis of the deposited data

How the results depend on the processing

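Among the settings that did not leave out 1 library, 256 values kept direction and side of the threshold, 4 no longer passed, 12 newly passed and 7 changed sign. Against 5 inhibitors and 914 genes in Ti vs naive, DESeq2 called 6 (Dkk2 added) and 1817, 556 and 544 genes were called with log2(FPKM + 1) and log2(FPKM + 0.1), and 3 inhibitors and 357 genes with only the 2 groups. For Ti+I-OG vs Ti, DESeq2 called 14 genes against 6. For Ti+I-OG vs naive, against 2 inhibitors and 1174 genes, DESeq2 called 5 and 2407, the FPKM fits 1787 and 1853 genes, and only the 2 groups 770. The F test called 820 genes, and 2432 with DESeq2. The causes were not tested.

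With the replicate number as a block, the genes called were 2968 in Ti vs naive (7 inhibitors, with Dkk2 and Wif1 added), 3450 in Ti+I-OG vs naive (6 inhibitors) and 3313 in the F test, and no inhibitor was called in Ti+I-OG vs Ti. All 6 libraries correlated best with their own number in both comparisons with Ti+I-OG, and 4 of 6 in Ti vs naive, a hint from the data.

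Leaving out 1 library in turn, 2 to 5 inhibitors and 100 to 1999 genes were called in Ti vs naive, 0 to 0 and 0 to 6 in Ti+I-OG vs Ti, 1 to 5 and 59 to 2119 in Ti+I-OG vs naive, and 1 to 5 and 139 to 1729 by the F test. The lone pair left in a group is assumed to vary like the other groups.

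Signs turned only for differences that did not pass. In Ti vs naive, Sfrp1 ranged from -0.089 without naive replicate 3 to 0.50 over the left-out libraries. In Ti+I-OG vs Ti, Dkk2 was -0.0047 with the block, -0.023 and -0.096 in the FPKM fits, and -0.20 to 0.27 over the left-out libraries, below 0 without Ti replicate 3, Ti+I-OG replicate 1 or Ti+I-OG replicate 2. Sfrp4 was -0.019 and -0.020 in the FPKM fits and -0.012 (without Ti+I-OG replicate 3) to 0.26 over the left-out libraries, and Sfrp1 was -0.20 to 0.0095 (without Ti+I-OG replicate 2). In Ti+I-OG vs naive, Sfrp1 was -0.031 in both FPKM fits and -0.21 (without naive replicate 3) to 0.38, and Wif1 was -0.24 (without naive replicate 3) to 0.60. The FPKM fits moved the median of all genes to -0.12 and -0.16 in Ti+I-OG vs naive.

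Naive counts of 13, 0 and 3 limit Dkk2, and those of 8 to 16 limit Sfrp5.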

Other observations

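The 3 ratios here were chosen after the values were seen and are given as a description. How often the ratios of other gene pairs lie apart between groups was not counted. The ratio of Frzb to Sfrp2, in FPKM, was 1.21, 3.81 and 2.21 in naive replicates 1 to 3, 1.81, 2.78 and 1.18 in Ti and 1.03, 0.770 and 0.304 in Ti+I-OG libraries, so that every Ti+I-OG library lay below every Ti and every naive library. The ratio of Wif1 to Sfrp4 was 1.57, 0.664 and 0.549 in naive, 1.63, 1.57 and 1.14 in Ti and 1.02, 0.825 and 0.393 in Ti+I-OG libraries. Here too every Ti+I-OG library lay below every Ti library, while naive libraries overlapped with both. Dkk1 and Dkk3, in contrast, had a ratio of 1.04 to 1.39 in all 6 titanium-treated libraries, with 1.28 to 2.30 in naive libraries.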
